A study of Mus musculus with 6 samples.

Results

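The genes described here are the 7 genes of MHC class II antigen presentation named H2-Aa, H2-Ab1, H2-Eb1, Cd74, H2-DMa, H2-DMb1 and Ciita. They were chosen by symbol, and all 7 were found among the 52081 genes that the 6 libraries share. Single-cell RNA sequencing was performed on callus tissue from fractured mouse femurs at 14 days post-fracture (dpf), in 3 control and 3 knockout libraries, and values are given in that order, replicates 1 to 3 of each group. Control mice carry the genotype label wt, and the study's methods describe them as Piezo1 f/f. The knockout label reads Col2CreERT; Piezo3-/-, while the series design text and the methods name Piezo1 as the deleted gene, so the label may hold a slip. The methods describe 12-week-old male mice of both groups, with tamoxifen at 75 mg/kg given 5 times to both, from day 5 after fracture. The Cre of the knockout mice is driven by the promoter of Col2a1, a gene of cartilage cells. The study asked how loss of Piezo1, a mechanosensing ion channel, in chondrocytes alters the callus.

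MHC class II molecules present peptides from ingested proteins to CD4 T cells. H2-Aa and H2-Ab1 encode the alpha and beta chains of the I-A molecule, and H2-Eb1 encodes the beta chain of I-E. Cd74, the invariant chain, occupies the peptide groove until the molecule reaches an endosome. There H2-DMa and H2-DMb1, the chains of the H2-DM peptide exchanger, help to load peptide, and Ciita is the transcriptional coactivator that switches the whole set on. Dendritic cells and B cells are known for constant class II expression, whereas macrophages and monocytes carry variable amounts and most non-immune cells carry little unless stimulated by interferon gamma.

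The H2 genes lie together on chromosome 17 of build GRCm38, between H2-DMa at chr17:34119541-34139101 and H2-Eb1 at chr17:34305867-34316674, both on the plus strand. H2-DMb1 (chr17:34153072-34160230) and H2-Ab1 (chr17:34257689-34269419) lie between them on the same strand, and H2-Aa (chr17:34282744-34287823) lies on the minus strand. Ciita is at chr16:10480059-10528418, also on the plus strand. The annotation places Brd2 across the 5′ end of H2-DMa and Dexi across part of Ciita, both on the opposite strand, and the H2-DMb2 gene beside H2-DMb1 is closely similar to it, so reads of that pair may be split between them.

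Class II promoters are recognised by a complex that binds an X box and, downstream of it, a Y box, which Ciita then joins. The promoter stretches below, upstream of RefSeq start sites on GRCm38.p6 and written 5′ to 3′ in the direction of the gene, are shown because they hold this pair of elements in the genes whose levels are compared here. Capitals mark GNAACT, letters found in the X box, and ATTGG, the core of the Y box. The H2-Aa stretch is chr17:34287857-34287914 on the minus strand, the H2-Eb1 stretch is chr17:34305766-34305822 on the plus strand and the H2-DMb1 stretch is chr17:34153087-34153144 on the plus strand.
H2-Aa: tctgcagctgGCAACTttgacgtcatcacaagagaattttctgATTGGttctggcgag
H2-Eb1: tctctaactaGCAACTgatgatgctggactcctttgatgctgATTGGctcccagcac
H2-DMb1: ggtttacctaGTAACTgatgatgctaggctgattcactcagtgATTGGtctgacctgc

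From the first base of GNAACT to the first base of ATTGG, the distance was 33 bases in H2-Aa, 32 bases in H2-Eb1 and 33 bases in H2-DMb1. The search covered 250 bases before to 50 bases after each start site, on both strands, with 15 to 45 bases between the starts of the motifs, which do not overlap at these distances. Such a pair was held by 432 of 32851 mouse promoters (1.32%), and ATTGG alone by 37.4%. Neither of the 2 windows listed for H2-DMa held these letters at this spacing. Promoters of H2-Ab1, Cd74 and Ciita were not analysed here.

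The 6 libraries held 46944 cell barcodes, with 57626530 to 103784364 unique molecular identifiers (UMIs) per library and a median of 2554 to 9289.5 UMIs per barcode, lowest in control 1 and knockout 1. The libraries had 46722 distinct barcodes, of which 222 occurred in more than 1 library (4 to 36 in any pair), and 41863 cells were kept after filters and removal of likely doublets. Cells were clustered without any gene on the class II lists, and clusters were named from marker genes. The libraries gave 4540 macrophage-like, 1406 monocyte-like, 578 dendritic-like, 247 B-like and 1559 osteoclast-like cells, and 26812 non-immune cells (stromal-like, endothelial-like and pericyte-like). Of the markers, 9 of 12 for macrophages, 8 of 9 for monocytes, 12 of 14 for dendritic cells, 13 of 13 for B cells and 10 of 10 for osteoclasts were highest in the class they name. Only these classes and non-immune cells were compared. The same markers had named the clusters, so these counts describe the classes and do not test their names. Knockout 1 held only 9 dendritic-like cells and was left out of that class, and B-like cells reached the minimum of 10 only in control 2, control 3 and knockout 2. Levels are given as CPM, the UMIs of a gene divided by all UMIs of the class in a library, times 1000000. Piezo1 itself was at 62.2, 56.6 and 59.3 CPM in all control cells and 95.9, 48.3 and 45.2 in knockout cells. In chondrocyte-like cells, a part of the stromal-like cells, it was at 72.4, 46.2 and 49.1 in controls and 130.9, 49.1 and 49.8 in knockouts. Tags from the 3′ end do not test the deletion of inner exons. The labels describe a callus taken from each mouse without tying mice to libraries, so p-values between groups measure the spread between these 3 and 3 libraries.

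Class II transcripts were concentrated in a small part of the callus. Macrophage-like cells held 34.1% to 45.8% of all UMIs of the 7 genes in a library while making up 3.92% to 15.9% of its cells. Dendritic-like cells held 23.4% to 38.6% of them from only 0.289% to 2.25% of the cells. Monocyte-like cells held 3.80% to 14.5%, and the macrophage-, monocyte- and dendritic-like cells together held 69.8%, 88.5% and 89.99% in the control libraries and 75.7%, 83.5% and 76.4% in the knockout libraries. Stromal-like cells, with 21.0% to 79.2% of the cells, held 2.86% to 24.3%, and that share was highest in control 1 and knockout 1, where they made up 79.2% and 74.6% of the cells.

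**Figure D1:**
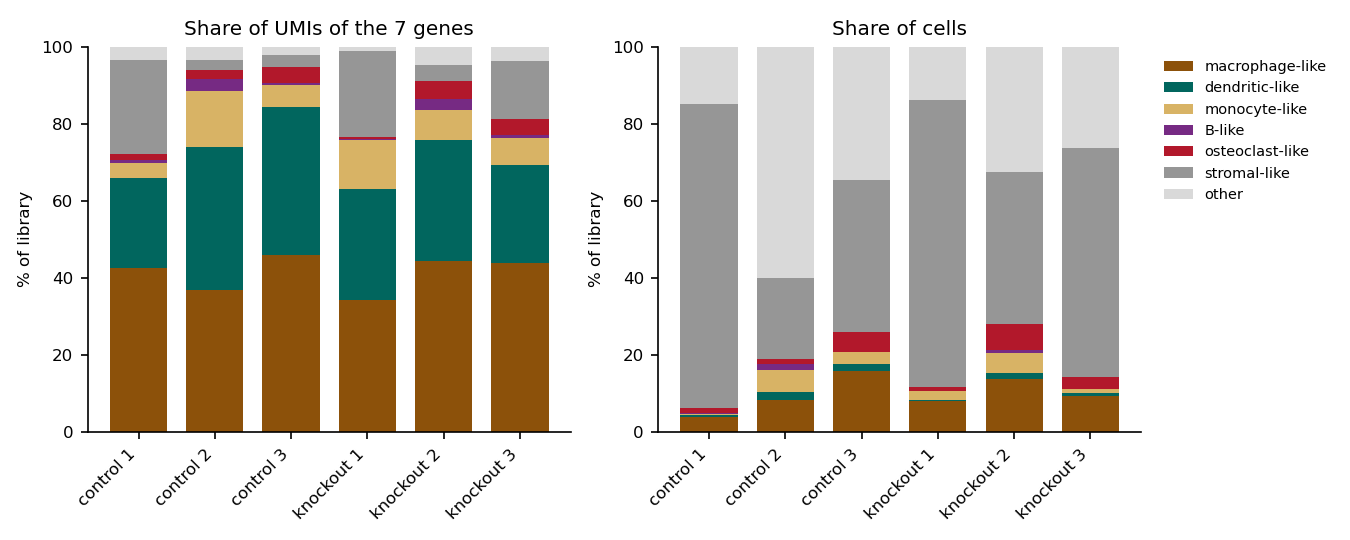
The left bars divide the UMIs of the 7 genes (percent of library) among cell classes, and the right bars divide the cells (percent of library) in the same colours, 1 bar per library. Dendritic-like cells take 23.4% to 38.6% of the left bars and at most 2.25% of the right bars.

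Dendritic-like cells carried the highest level of each of the 7 genes in every library with at least 10 such cells, except Ciita in control 2, which was at 137 CPM in B-like and 133 in dendritic-like cells. Each UMI is 1 tagged transcript end, so the levels were not divided by gene length. H2-Aa stood at 10959.6, 9593 and 8860.2 in dendritic-like cells of the control libraries and at 8578 and 11581 in knockout 2 and 3. H2-Ab1 stood at 10909.9, 9032 and 10101 in controls and at 5927 and 8974 in knockouts. H2-Eb1 stood at 8242, 7436 and 8922 in controls and 6283 and 8901 in knockouts. The 3 chain genes thus lay within a narrow band, from 5927 to 11581, in all 5 libraries.

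Cd74 was the most abundant of the set in dendritic-like cells, at 24053, 21797 and 19721 in controls and 26206 and 29581 in knockouts. The H2-DM genes lay about an order of magnitude below the chain genes and further below Cd74, with H2-DMa at 746 to 876 and H2-DMb1 at 666 to 1043. Ciita, the coactivator, was at 253, 133 and 275 in controls and 289 and 95.1 in knockouts. In the 9 dendritic-like cells of knockout 1, which entered no test, H2-Aa was at 8339 and Cd74 at 16725, also far above every other class of that library that had 10 or more cells.

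Within each library, the difference between classes was taken on the log2(CPM + 1) scale. Over 15 pairs of the 6 classes and 7 genes, 94 of 105 comparisons had the same direction in every library that could be compared. The same share was not counted over all genes, and pairs with B-like cells rest on only 3 libraries, so the count is a description. The exact two-sided sign-flip permutation test cannot pass an adjusted threshold of 0.05 here, since its smallest p is 0.03125 with 6 libraries, 0.0625 with 5 and 0.25 with 3, and its lowest adjusted p was 0.0994 over the 105 tests. A fit that was added after the data were seen, edgeR's quasi-likelihood test with the library as a block over all genes, is therefore given beside the levels, and its adjusted p-values are over all genes tested. B-like cells entered it with only 3 libraries, for which log2 values with their standard errors (SE) and calls are given. Each SE was derived from the log2 value and the test statistic. With 3 libraries the calls and SEs of B-like cells rest on the fit's model of the spread over all genes. They are descriptions, since the exact test cannot go below 0.25 there.

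Macrophage-like cells lay well under dendritic-like cells. H2-Aa was at 1674, 2067 and 1031 in macrophage-like cells of controls and at 471, 979 and 1008 in knockouts, and Cd74 was at 3941, 4983 and 2594 in controls and 1269.8, 3178 and 2937 in knockouts. All 7 genes were called lower in macrophage- than in dendritic-like cells by edgeR, where 19.9% of all genes tested were called in that direction and 17.9% in the other. The log2 difference was -3.13 (SE 0.17) for H2-Aa, -3.24 (SE 0.17) for H2-Ab1, -3.13 (SE 0.15) for H2-DMb1 and -4.12 (SE 0.20) for Ciita, with an adjusted p of 5.5e-09 or lower for each of the 7. The macrophage-like cells of knockout 1 were lowest for each of the 7 genes.

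Monocyte-like cells resembled macrophage-like cells in the chain genes and exceeded them in the loading genes. H2-Aa was at 1549, 1777 and 592 in monocyte-like cells of controls and at 574, 851 and 2526 in knockouts, a range that overlaps that of macrophage-like cells. For H2-Aa, H2-Ab1, H2-Eb1 and Cd74 no difference was called between these classes, with log2 differences, macrophage minus monocyte, of -0.18 (SE 0.21), -0.26 (SE 0.19), 0.32 (SE 0.21) and -0.45 (SE 0.19). H2-DMa, however, was at 129, 140 and 99.9 in macrophage-like cells of controls and 53.1, 106 and 91.7 in knockouts, against 330.4, 328 and 233 in monocyte-like cells of controls and 133, 275 and 345 in knockouts.

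The H2-DMa values of monocyte-like cells were higher in every library, and the edgeR difference was -1.54 (SE 0.12, adjusted p = 8.5e-07). H2-DMb1 (-1.02, SE 0.15, adjusted p = 0.00015) and Ciita (-1.62, SE 0.23, adjusted p = 0.00010) were also called lower in macrophage-like cells. These 3 of 7 genes stand beside 22.2% of all genes called in that direction, and 0 of 7 beside 22.4% called in the other. Ciita rested on few molecules in both classes, at 5.77 to 29.1 CPM in macrophage-like and 5.28 to 90.1 in monocyte-like cells. The difference between monocyte- and dendritic-like cells was called for all 7 genes, lower in monocyte-like cells, beside 14.7% of all genes. The largest of these differences was that of H2-Eb1 (-3.42, SE 0.19) and the smallest that of H2-DMa (-1.51, SE 0.11).

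**Figure D2:**
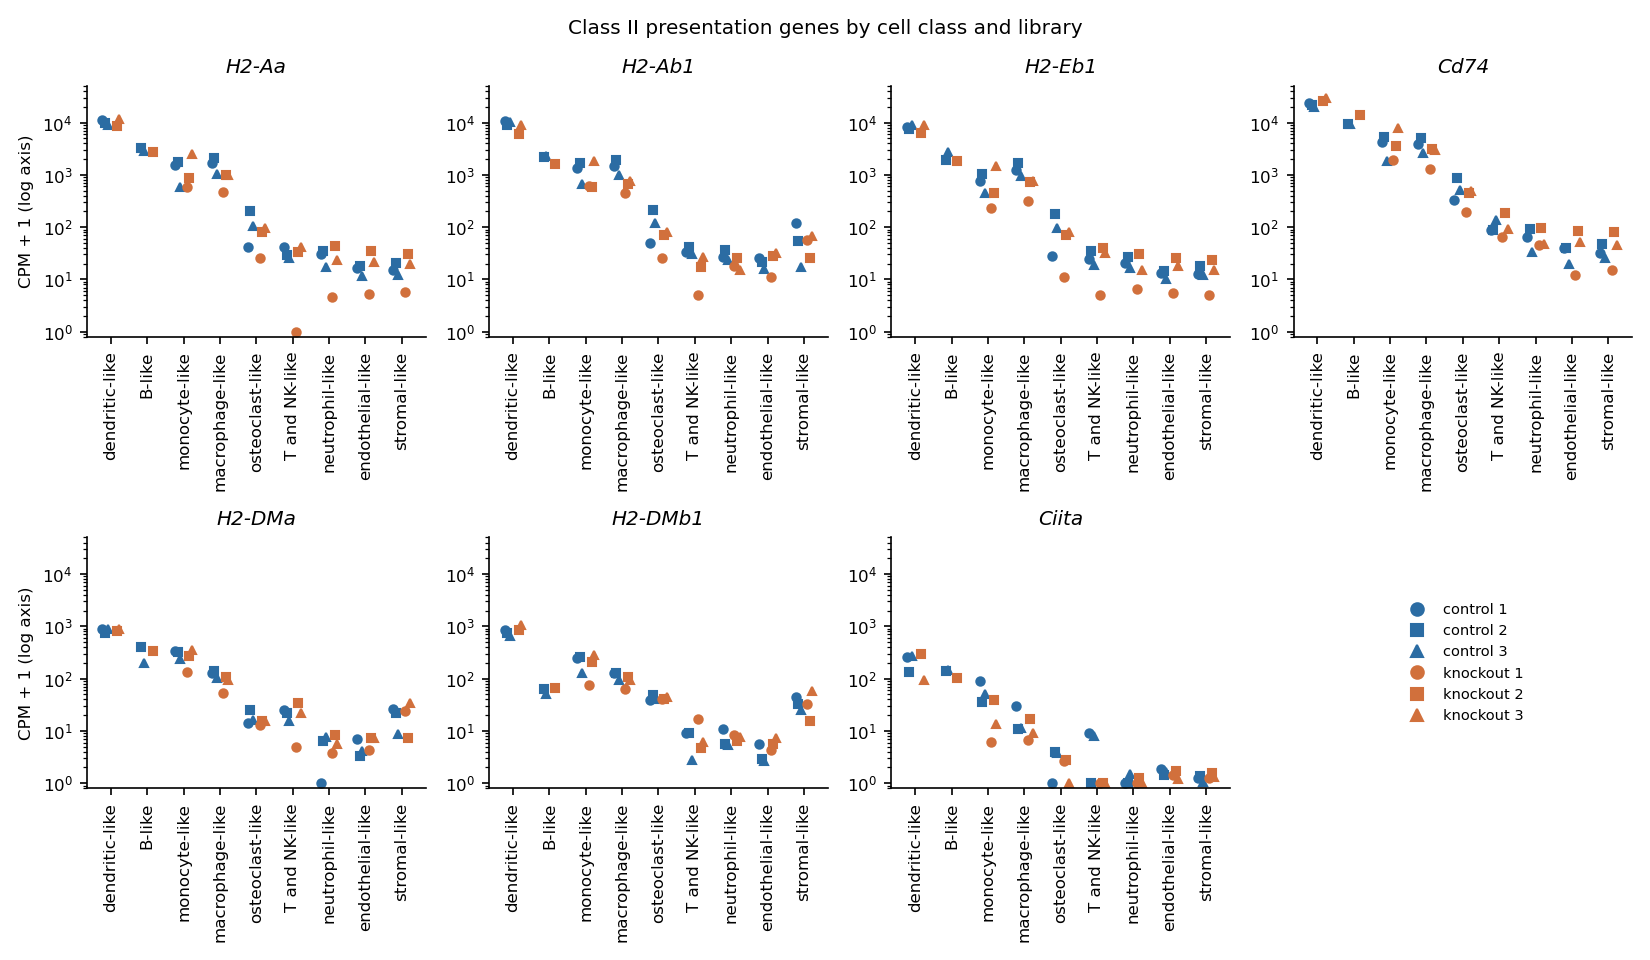
Each panel plots 1 gene as CPM + 1 on a log10 axis against cell class, with 1 point per library, blue for control and orange for knockout, and a circle, square or triangle for replicates 1, 2 and 3. The dendritic-like points stand highest for every gene but Ciita, where they overlap the B-like points, with H2-Aa between 8578 and 11581, and the points of T and NK-, neutrophil-, endothelial- and stromal-like cells stand far below those of macrophage-like cells for H2-Aa.

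The macrophage-like class was uneven. One of its 5 clusters, of 832 cells, led by the complement genes C1qb, C1qa and C1qc with Aif1 and Cx3cr1, held 9.20% to 22.7% of the macrophage-like cells of a library and 39.9% to 74.1% of their UMIs of the 7 genes. H2-Aa in this cluster was at 6957, 7106 and 4171 in controls and 2618, 4700.4 and 3614 in knockouts. In the largest cluster, of 1726 cells and led by Pf4 and Gpnmb, H2-Aa was at 1849, 1224 and 266 in controls and 97.5, 791 and 961 in knockouts. The cluster led by histone genes and Ube2c, genes of dividing cells, held 562 cells, with H2-Aa between 14.6 and 657 CPM. In every library the first cluster was the highest of the 5 for H2-Aa, a description for which no test was made.

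B-like cells lay between macrophage- and dendritic-like cells for the chain genes and under both for H2-DMb1, which rested on few molecules. In control 2, control 3 and knockout 2, H2-Aa was at 3272, 2881 and 2791 and Cd74 at 9255, 9504 and 13738. Ciita was at 137, 148 and 101, and H2-DMa at 404, 197 and 342. H2-DMb1 was at only 63.2, 49.2 and 64.4, below its level in macrophage- and dendritic-like cells of the same libraries. These values rest on 18, 2 and 16 UMIs. In control 3 the 95% counting interval, 5.96 to 178 CPM, covers the level of 91.3 in macrophage-like cells.

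Dendritic-like cells were higher than B-like cells in all 7 genes by edgeR, beside 14.8% of all genes called in that direction and 10.6% in the other, and the log2 difference was 3.80 (SE 0.30) for H2-DMb1 against 1.41 (SE 0.24) for its partner H2-DMa and 0.89 (SE 0.28) for Ciita. Macrophage-like cells were called lower than B-like cells in 6 of the 7 genes, beside 9.72% of all genes, and higher in H2-DMb1, by 0.97 (SE 0.36), beside 14.5%. Monocyte-like cells were likewise lower in 5 genes, beside 13.8% of all genes, and higher in H2-DMb1, by 1.92 (SE 0.30), beside 18.4%, with H2-DMa uncalled at -0.08 (SE 0.23).

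The gene beside H2-DMb1 differed in the place of B-like cells, which were highest among the classes given here. H2-DMb2, a second beta chain gene of H2-DM, was at 222 to 322 CPM in B-like cells and 79.1 to 181 in dendritic-like cells, against 1.15 to 3.11 in macrophage-like cells and at most 8.58 in monocyte-like cells. H2-Eb2 was at 40.3 to 49.2 in B-like cells and 0 to 28.1 in dendritic-like cells. H2-Oa and H2-Ob, the chains of H2-DO, which restrains H2-DM, were also at measurable levels only in dendritic- and B-like cells among the 6 classes. H2-Oa was at 118 to 236 in dendritic-like and 98.5 to 145 in B-like cells, and H2-Ob at 57.8 to 118 in dendritic-like and 197 to 367 in B-like cells, while both were at 2.43 or less in the other 4 classes. The alpha chain partner of H2-Eb1, listed as the pseudogene H2-Ea-ps, had 10 UMIs in all 41863 cells. In mice of the b haplotype this gene is known not to be expressed.

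Dendritic-like cells were themselves split by marker genes of known subsets. The 273 dendritic-like cells with a UMI of Cd209a, a type 2 marker, had 10399 H2-Aa and 26359 Cd74 CPM. The 84 cells with a UMI of Xcr1 or Clec9a, type 1 markers, had 7942 and 19466 and the highest Ciita, at 299. The 89 cells with Ccr7 or Ccl22, genes of migrating dendritic cells, had 10698 and 25662, with H2-DMa at 572. The 55 cells with a UMI of Siglech, a plasmacytoid marker, had the lowest values, 4016 and 10948, with Ciita at 87.2. These values pool cells over libraries, a cell can fall in more than one set, and no test was made.

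Osteoclast-like cells, multinucleated bone-resorbing cells of the macrophage lineage, had low levels of the set, with H2-DMb1 nearest to macrophage-like cells. H2-Aa was at 41.4, 199 and 103 in osteoclast-like cells of controls and 25.2, 80.6 and 95.8 in knockouts, and Cd74 at 325, 878 and 515 in controls and 195, 440.5 and 496 in knockouts. H2-DMb1 varied little, from 38.4 to 47.9 in the 6 libraries. Ciita was at 0 in control 1 and knockout 3, where a count of 0 allows up to 1.80 and 0.615 CPM (3 UMIs), and at 2.88 or less elsewhere.

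All 7 genes were called lower in osteoclast- than in macrophage-like cells, beside 28.4% of all genes called in this direction and 28.1% in the other. The log2 difference, macrophage minus osteoclast, was 3.70 (SE 0.22, adjusted p = 1.1e-08) for H2-Aa and 3.45 (SE 0.21, adjusted p = 1.3e-08) for H2-Ab1 but 1.21 (SE 0.11, adjusted p = 8.0e-07) for H2-DMb1. Against non-immune cells, osteoclast-like cells were called higher in 5 of 7 genes, beside 28.2% of all genes called in that direction and 42.8% in the other, with H2-Aa higher by 2.41 (SE 0.30). Of these 5, H2-DMb1 and Ciita were higher in osteoclast-like cells in only 4 of 6 libraries. H2-Ab1 (1.07, SE 0.52, adjusted p = 0.083) and H2-DMa (0.29, SE 0.34, adjusted p = 0.46) missed the threshold, and their levels in chondrocyte-like cells are given further on. Dendritic-like cells exceeded osteoclast-like cells in 7 of 7 genes, beside 28.9% of all genes, and non-immune cells in 7 of 7, beside 18.2%. B-like cells were called higher than osteoclast-like cells in 6 of 7 genes, beside 15.6%, and not in H2-DMb1 (0.28, SE 0.35), and were higher than non-immune cells in 7 of 7, beside 7.43%. Monocyte-like cells were higher than osteoclast-like cells in 6 of 6 genes, beside 31.9%, and than non-immune cells in 7 of 7, beside 23.4% called higher and 37.5% called lower.

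Free RNA in droplet libraries gives a cell UMIs of genes it does not express, and neutrophil-like cells, which are not known as class II cells, served as the level to compare with. H2-Aa was at 3.65 to 42.5 CPM in neutrophil-like cells and 4.74 to 31.1 in non-immune cells, and Cd74 at 33.1 to 97.0 and 13.98 to 84.2. Macrophage-like cells exceeded non-immune cells in all 7 genes, beside 31.3% of all genes called in that direction and 37.5% in the other, by 6.29 (SE 0.30) on the log2 scale for H2-Aa and 2.02 (SE 0.32) for H2-DMb1. When each cell was thinned to 500 UMIs, 89.8% of dendritic-like cells had an H2-Aa UMI (95% Wilson interval 87.1% to 92.0%, 578 cells), as had 74.1% of B-like (68.3% to 79.2%, 247 cells), 22.7% of macrophage-like (21.5% to 23.9%), 21.6% of monocyte-like (19.5% to 23.8%) and 5.33% of osteoclast-like cells (4.32% to 6.56%).

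The share in neutrophil-like cells was 1.76%, in stromal-like cells 1.35% and in endothelial-like cells 1.21%. The thinned share in macrophage-like cells ran from 9.72% in knockout 1 to 37.0% in control 2. Without thinning, H2-Aa was seen in 94.3% of dendritic-like, 44.1% of macrophage-like, 40.7% of osteoclast-like, 15.9% of stromal-like and 7.98% of neutrophil-like cells. The unthinned values follow depth as well as level, since the median cell held 6061.5, 6810, 16034, 9386 and 2281.5 UMIs in these classes. Ciita was seen in 7.96% of thinned dendritic-like cells and 58.7% of whole ones, against 0.927% and 7.16% of macrophage-like and 0.0220% and 0.0439% of neutrophil-like cells. Shares given without a library pool all libraries, including the cells of libraries with fewer than 10 dendritic- or B-like cells. For H2-Aa the thinned share in dendritic-like cells ran from 80.8% in knockout 2 to 100% in control 1 (14 cells). These intervals cover counting error only and not the spread between libraries.

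Chondrocyte-like cells, a class singled out after the values were seen, carried more H2-Ab1, H2-DMa and H2-DMb1 than osteoblast- and fibroblast-like cells in most libraries, with knockout 2 as an exception for H2-Ab1 and H2-DMb1. H2-Ab1 was at 203, 110 and 25.7 CPM in chondrocyte-like cells of controls and 127, 28.0 and 115 in knockouts. In osteoblast-like cells of the same libraries it was at 31.4, 15.7 and 15.5, and 10.7, 21.2 and 19.3, and in fibroblast-like cells at 65.4, 28.6 and 14.2, and 22.7, 28.8 and 28.7, so that knockout 2 was lower in chondrocyte- than in fibroblast-like cells. H2-DMa was at 47.7, 54.2 and 21.6 in controls and 55.5, 9.19 and 57.2 in knockouts, against 4.03 to 6.11 in osteoblast-like cells.

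H2-DMb1 was at 76.2, 75.9 and 55.2 in controls and 71.3, 13.8 and 94.6 in knockouts, against 14.8, 13.1 and 18.03 and 16.002, 17.9 and 20.7 in osteoblast-like cells, so that knockout 2 was again the reverse of the others. Knockout 2 was the lowest library for both H2-DM genes and control 3 for H2-Ab1. Chondrocyte-like H2-Aa, at 6.51 to 33.5, and Cd74, at 17.0 to 118, lay near the levels of fibroblast-like cells, at 4.004 to 36.2 and 12.7 to 98.6, and Ciita was at 0.459 or less.

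By edgeR with the library as a block, 3 of 6 members tested were called higher in chondrocyte- than in osteoblast-like cells, beside 13.9% of all genes. They were H2-DMa by 2.78 (SE 0.42, adjusted p = 0.0011), H2-Ab1 by 2.10 (SE 0.42, adjusted p = 0.0055) and H2-DMb1 by 1.74 (SE 0.37, adjusted p = 0.0069). Against fibroblast-like cells 5 of 6 were called higher, beside 19.6% of all genes, by 2.43 (SE 0.29) for H2-DMa but 0.34 (SE 0.11) for Cd74. Against endothelial-like cells 6 of 6 were called higher, beside 31.2%. Against neutrophil-like cells only H2-DMa (1.92, SE 0.48) and H2-DMb1 (2.52, SE 0.35) were called higher, beside 37.4%, while H2-Aa, H2-Eb1 and Cd74 were called lower, beside 35.4%, and H2-Ab1 missed the threshold (0.98, SE 0.42, adjusted p = 0.052). The fit scales libraries by TMM factors, which the CPM levels do not use. The part of this scaling in these calls was not tested. By CPM, H2-Ab1 was higher in chondrocyte- than in neutrophil-like cells (14.5 to 35.0) in every library. H2-Eb1 was higher in knockout 2 (29.9 against 29.1) and knockout 3 (14.6 against 14.1), near equal in control 3 (15.80 against 15.85) and lower in control 1, control 2 and knockout 1. The ratio of H2-Ab1 to H2-Aa UMIs in chondrocyte-like cells was 15.03, 5.60 and 1.72 in controls and 19.5, 0.836 and 6.15 in knockouts, against 0.670 to 0.953 in macrophage-like cells. The ratio was also raised in neutrophil-like cells of knockout 1, at 4.75, where H2-Aa was lowest, and lay between 0.585 and 1.41 in the other neutrophil-like libraries. Other stromal-like cells also had more H2-Ab1 than H2-Aa in control 1 and knockout 1. In fibroblast-like cells H2-Ab1 was at 65.4 and 22.7 CPM there, against 14.8 and 4.004 for H2-Aa. In osteoblast-like cells it was at 31.4 and 10.7, against 9.54 and 3.39. In knockout 2 H2-Ab1 lay under H2-Aa in both classes.

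**Figure D3:**
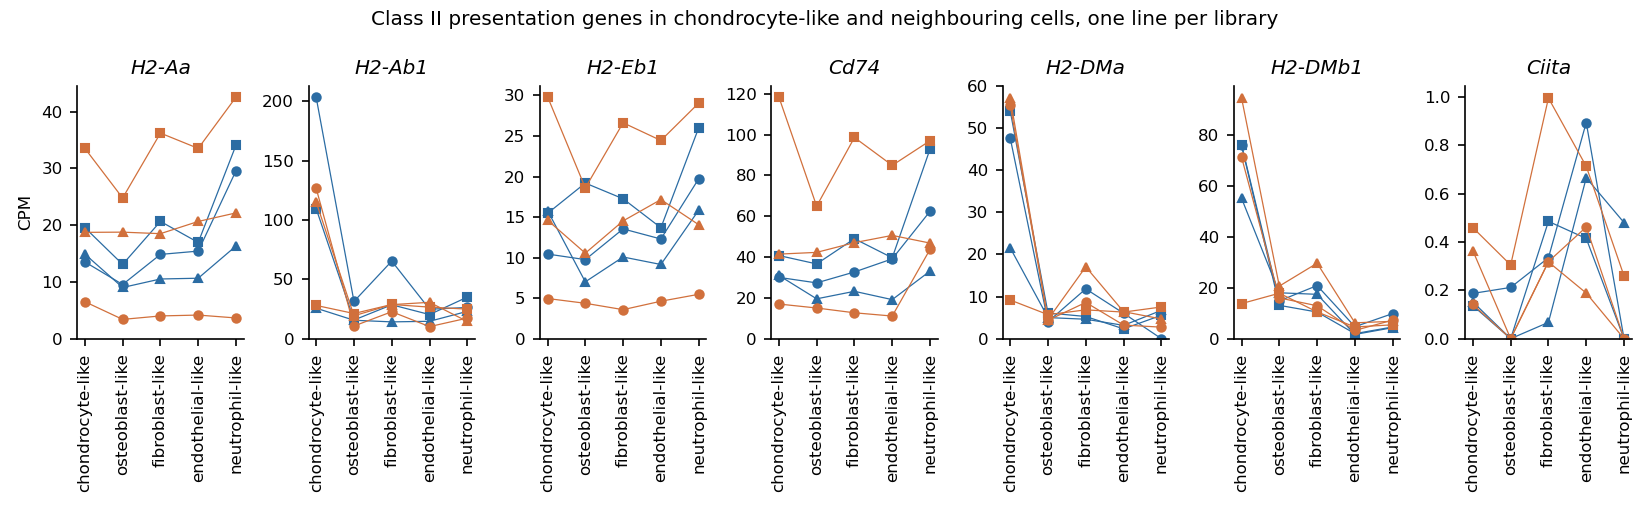
Each panel plots 1 gene in CPM on a linear axis in 4 non-immune classes and neutrophil-like cells, with a line per library, blue for control and orange for knockout, and a circle, square or triangle for replicates 1, 2 and 3. H2-Ab1, H2-DMa and H2-DMb1 peak in chondrocyte-like cells in most libraries, H2-Ab1 at up to 203. H2-Aa is highest there only in knockout 1 (6.51), and H2-Eb1 (29.9) and Cd74 (118) only in knockout 2.

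H2-Ab1 and the H2-DM genes did not share 1 pattern over the chondrocyte-like clusters. In the cluster of 1862 cells led by Hapln1, Col2a1 and Matn3, H2-DMb1 was at 98.5, 81.5 and 83.6 in controls and 92.9, 23.0 and 126.9 in knockouts, and H2-DMa at 64.7, 59.8 and 35.3 and at 75.5, 5.74 and 86.2. In the cluster of 1135 cells led by Chil1, Rbp4 and Col10a1, the last a gene of hypertrophic cartilage, H2-DMa was at 6.76 to 16.4 and H2-DMb1 at 10.5 to 41.4. H2-Ab1 was at 126, 164 and 13.9 in controls and 69.0, 21.0 and 167 in knockouts there, against 238, 105 and 43.7 and 152, 19.1 and 88.9 in the first cluster, so neither cluster was the higher one in all libraries. After thinning to 500 UMIs, 4.76% of chondrocyte-like cells had an H2-Ab1 UMI (4.30% to 5.27%, 7547 cells with a median of 1217 UMIs), against 1.56% of neutrophil-like cells with a median of 2281.5. These shares pool the cells of all libraries, and the interval covers counting error and not the spread between libraries. Control 1 and knockout 1 gave 2197 and 1524 of the chondrocyte-like cells, with medians of 737 and 867 UMIs.

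Other genes of the pathway were taken from 6 lists. Among genes of peptide loading and turnover, the protease Ctsb was at 3376 to 5783 CPM in macrophage-like and 313 to 596 in dendritic-like cells. Ifi30, which reduces disulfide bonds of ingested proteins, was at 1478 to 1919 in dendritic-like, 743 to 1205 in macrophage-like and 1134 to 2093 in osteoclast-like cells. Ctss, the protease that trims the invariant chain in many antigen-presenting cells, was at 1058.6 to 1343 in dendritic-like, 1367 to 3326 in macrophage-like and 302 to 354 in B-like cells. Among transcription factors, Irf8 was at 251 to 639.6 in dendritic-like, 242 to 320.1 in B-like, 115 to 184 in macrophage-like and 10.05 to 15.6 in osteoclast-like cells. Spi1 was highest in osteoclast-like cells, at 513 to 828, where the chain genes were low. Rfx5, Rfxap and Rfxank, subunits of the complex that binds the X box, were at 4.52 to 98.6 in dendritic-like cells and at 4.37 to 40.6 in non-immune cells, ranges that overlap.

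Of the co-stimulatory genes, Cd86 was at 76.9 to 298 in dendritic-like and 50.4 to 114 in macrophage-like cells and at most 1.14 in non-immune cells. The class I genes B2m, H2-K1 and H2-D1 were present in every class, and even in non-immune cells each was at 134.9 or more. Ifng encodes the cytokine that induces class II genes in many cells. It was at 0 in dendritic-like cells of all 5 libraries and at 3.51 or less in the other 5 classes compared. T and NK-like cells were not among the classes compared, so these values do not give the Ifng level of the whole callus.

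The genes whose pattern was most like that of the members were sought over 67 pairs of library and class and 9406 genes with a mean of at least 10 CPM. The measure was Pearson's r of log2 levels with the mean of H2-Aa, H2-Ab1, H2-Eb1 and Cd74, and the points share libraries, depth and free RNA, so it is a description. The closest outside the set were Fgd2 (r = 0.90), Ly86 (r = 0.88), Cd83 (r = 0.87), Cd86 (r = 0.86) and Cd180 (r = 0.85). Cd83 encodes a protein known to stabilise class II on the cell surface. Of the 3 members outside that mean, Ciita stood at 0.92, H2-DMb1 at 0.85 and H2-DMa at 0.83.

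Between the genotype groups, none of the 7 genes passed the test in any class. EdgeR's quasi-likelihood test on UMIs summed per library and class gave 0 of 7 called in macrophage-, monocyte-, dendritic- and stromal-like cells and 0 of 6 in osteoclast- and endothelial-like cells, where 0.0% of all genes were called. In B-like cells, with 2 control libraries against 1, it gave 0 of 7 beside 0.624% of genes called. An unadjusted edgeR p under 0.05 was reached by 179 of 12504 genes in macrophage-like and 185 of 8564 in monocyte-like cells. In dendritic-like cells it was reached by 479 of 8247 genes. A fraction of about 0.05 of genes would reach this p without any difference between groups, so these counts are descriptions.

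In macrophage-like cells all 7 genes were lower on average in the knockout libraries, without passing the test. H2-Ab1 was at 1461, 1892 and 983 in controls and 439.9, 656 and 777 in knockouts, so that every knockout library lay under every control library. The same held for H2-Aa, given above, and for H2-Eb1, at 1256, 1662 and 954 against 315, 731 and 763. These 3 of 7 genes stand beside 2.38% of all genes with every knockout library lower, and 0 of 7 beside 2.23% with every knockout library higher. For H2-Aa the gap was narrow, since the 95% counting intervals of knockout 3 (985 to 1031) and control 3 (1011 to 1052) overlapped. The levels of the 3 chain genes move together over libraries and classes, so the 3 are not separate observations. Such counts, and medians over the members, are descriptions.

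The log2 fold change, knockout over control, was -1.18 (SE 0.36, edgeR adjusted p = 0.9996) for H2-Ab1, -1.07 (SE 0.42) for H2-Eb1, -0.92 (SE 0.41) for H2-Aa and -0.61 (SE 0.44) for Cd74. H2-DMa (-0.53, SE 0.32), H2-DMb1 (-0.41, SE 0.28) and Ciita (-0.59, SE 0.49) overlapped between groups. The median over the 7 genes was -0.61, where the median of all genes was 0.02. Within the class II-rich cluster described above, H2-Ab1 was at 6149.6, 6455 and 3894 against 2285, 3049.5 and 2879. H2-Eb1 was at 5944, 5961 and 4071 against 1729, 3713 and 2868. Neither gene overlapped between groups there, while H2-Aa did. The cluster held only 15 macrophage-like cells in control 1 and 33 in knockout 1. The share of all genes without overlap was not counted in it, so these values are descriptions. That cluster made up 9.20%, 22.7% and 18.8% of macrophage-like cells in controls and 13.4%, 19.2% and 15.2% in knockouts.

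**Figure D4:**
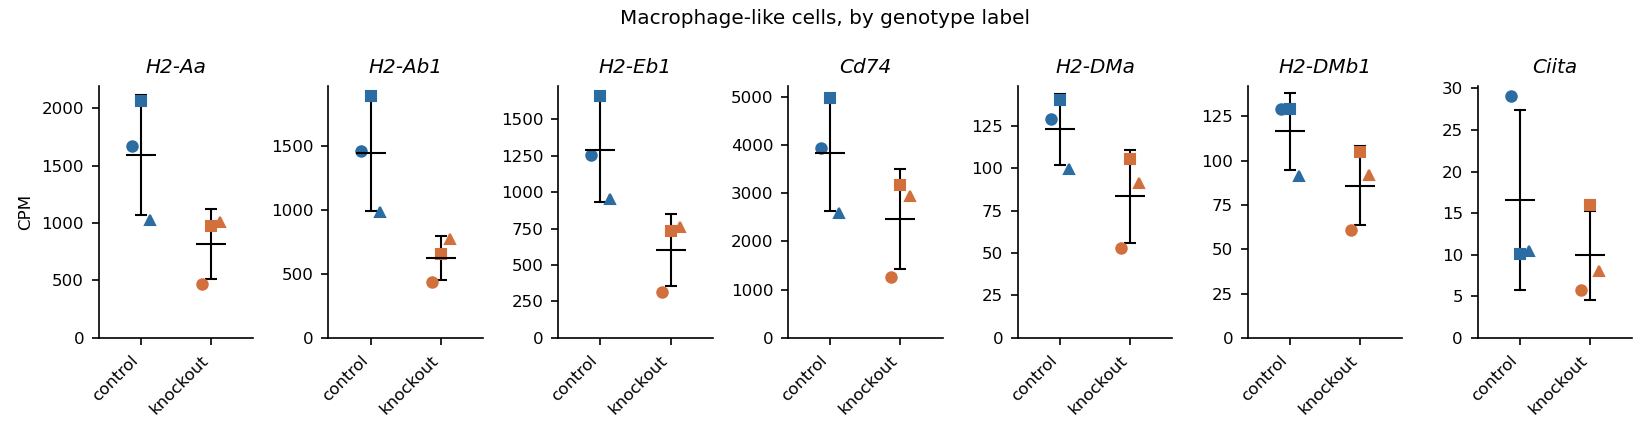
Each panel plots 1 gene in macrophage-like cells, in CPM on a linear axis from 0, against genotype label, with 1 point per library (circle, square or triangle for replicates 1, 2 and 3) and the mean ± SD of 3 libraries. Knockout points lie under all control points for H2-Aa, H2-Ab1 and H2-Eb1, with H2-Ab1 at 439.9 to 777 against 983 to 1892, and overlap control points for the other genes.

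The largest cluster of the macrophage-like class differed between libraries. The Pf4- and Gpnmb-led cluster held the most macrophage-like cells in control 2, control 3, knockout 1 and knockout 3, the cluster led by C1qa, C1qb and C1qc with Mrc1 and Ccl8 held 31.2% in knockout 2, and in control 1 the first was tied with a cluster of low UMI counts at 29.4% each. The part of these shares in the difference between groups was not tested.

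In the other classes, direction and overlap between the groups varied with the class. Monocyte-like cells overlapped between the groups for all 7 genes (0 of 7, beside 3.63% of all genes with every knockout library lower and 3.33% higher), with H2-Ab1 at 1360.3, 1719 and 668 in controls and 606, 595 and 1824 in knockouts, and knockout 3 was the highest library for H2-Aa, H2-Ab1, H2-Eb1 and Cd74. In dendritic-like cells H2-Ab1 was lower in both knockout libraries than in the 3 controls, beside 15.4% of all genes, with a log2 fold change of -0.32 (SE 0.29, edgeR adjusted p = 0.835). Cd74 and H2-DMb1 were higher in both, beside 9.17% of all genes, by 0.45 (SE 0.25, edgeR adjusted p = 0.785) and 0.45 (SE 0.28, edgeR adjusted p = 0.791). These are 1 of 7 and 2 of 7 members, from 3 and 2 libraries. The 9 dendritic-like cells of knockout 1, left out here, went the other way for Cd74, at 16725, and H2-DMb1, at 556. Both values lay below every control library, as did H2-Ab1 in these cells, at 7542. In endothelial-like cells the log2 fold change was above 0 for 6 of 6 genes, with overlapping groups and levels near those of neutrophil-like cells. In B-like cells 4 of 7 genes were lower in the 1 knockout library than in both controls, beside 34.4% of all genes, and 2 of 7 were higher, beside 27.6%. No gene of the set was without overlap in osteoclast-like (0 of 6, beside 4.98% lower and 2.71% higher), endothelial-like (0 of 6, beside 6.33% and 4.94%) or stromal-like cells (0 of 7, beside 2.67% and 1.25%).

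None of the pathway lists held a called gene in any class, and the lowest edgeR adjusted p over all their genes was 0.276, for Cd63 in B-like cells. In macrophage-like cells the median log2 fold change was -0.02 over 9 genes of peptide loading and turnover, -0.08 over 10 genes of the interferon gamma response and -0.13 over 9 class I genes, beside -0.61 over the members and 0.02 over all genes. The 5 co-stimulatory genes tested were all below 0, with a median of -0.34, where 47.6% of all genes were below 0. In dendritic-like cells the 5 tested were also all below 0, with a median of -0.91, beside 0.12 over the members. In stromal-like cells 4 of 5 were above 0, with a median of 0.86, and the other classes were mixed.

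The balance between Cd74 and the chain genes differed between libraries of the groups in some classes, a pattern noticed after the values were seen and given as a description. In macrophage-like cells the ratio of Cd74 to H2-Ab1 UMIs was 2.70, 2.63 and 2.64 in controls and 2.89, 4.84 and 3.78 in knockouts. In dendritic-like cells it was 2.20, 2.41 and 1.95 in controls and 4.42 and 3.30 in knockout 2 and 3. The 9 dendritic-like cells of knockout 1 had a ratio of 2.22, inside the range of the controls. In monocyte-like cells it was 3.15, 3.04 and 2.76 in controls and 3.20, 6.07 and 4.32 in knockouts, and in B-like cells 4.17 and 4.15 in controls and 8.53 in knockout 2.

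In each of these 4 classes every knockout library with at least 10 cells lay above every such control library, and knockout 2 was the highest. Knockout 1 reached 10 cells only in macrophage- and monocyte-like cells, where its ratio was close to the controls. No share of other gene pairs without overlap was counted. The B-like comparison sets 1 knockout library against 2 control libraries with at least 10 cells. Below that minimum, B-like cells had a ratio of 6.33 in control 1 (6 cells), 8 in knockout 1 (1 cell) and 6.96 in knockout 3 (9 cells). The groups overlapped in osteoclast-like cells, at 6.78, 4.22 and 4.28 in controls and 7.73, 6.33 and 6.14 in knockouts, in endothelial-like cells, at 1.58, 1.95 and 1.31 against 1.09, 3.20 and 1.65, and in neutrophil-like cells, at 2.38, 2.65 and 1.44 against 2.53, 3.90 and 3.24. H2-Ab1 differs in sequence between mouse strains, the labels give no strain for single mice, and whether this bears on how H2-Ab1 reads were counted was not tested. The counting interval of knockout 1 in monocyte-like cells, 2.92 to 3.52, covers the 2 highest control values. The classes of a library come from the same callus, so they are not independent. The ratio of Cd74 to H2-Aa showed a smaller shift in macrophage-like cells, with 2.35, 2.41 and 2.52 in controls and 2.70, 3.25 and 2.91 in knockouts. It also did not overlap in dendritic- and B-like cells, while in monocyte-like cells control 3 and knockout 3 both stood at 3.12. For Cd74 to H2-Eb1 the values were 3.14, 3.00 and 2.72 in controls and 4.03, 4.34 and 3.85 in knockouts in macrophage-like cells, while those of monocyte-like cells overlapped, with knockout 3 at 5.30 and control 1 at 5.62. The ratio is independent of the total UMI count of the class, and no test of it was made.

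**Figure D5:**
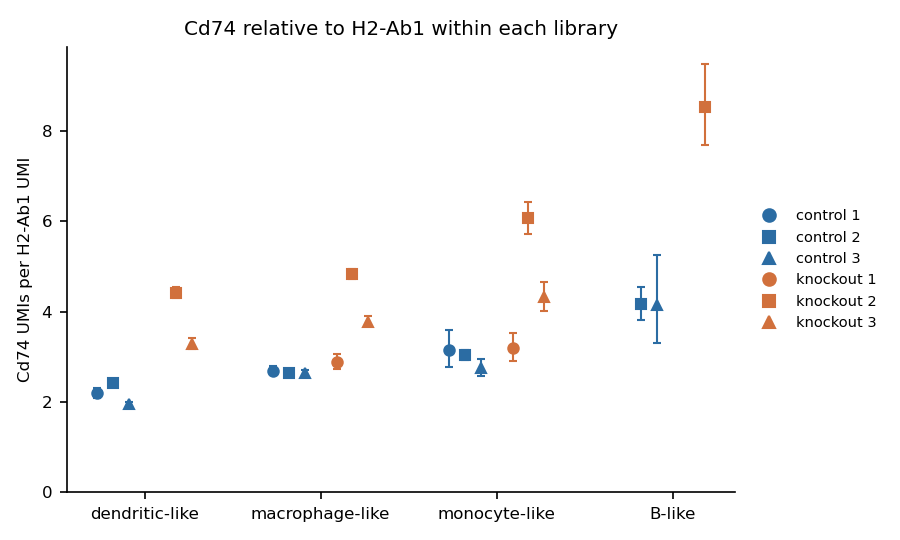
The ratio of Cd74 to H2-Ab1 UMIs (no unit) is plotted on a linear axis by cell class and genotype label, with 1 point per library of at least 10 cells in the 4 classes without overlap (blue for control, orange for knockout, and a circle, square or triangle for replicates 1, 2 and 3), and bars give the 95% counting interval. Control points lie at 1.95 to 4.17 and each class's knockout points above them, up to 8.53 in B-like cells, with knockout 1 lowest among knockout points of macrophage- and monocyte-like cells.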

How the data were processed

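Callus cells of 3 control and 3 knockout libraries were profiled with the 10x Genomics 3′ kit (v3). The deposited matrices hold UMI counts per gene and cell barcode, made by the authors with Cell Ranger (6.1.1 for replicate 1 of each group and 6.1.2 for the others, per the file headers) on build GRCm38. The gene list of replicate 3 differed from that of the other replicates in both groups (55357 and 55450 genes), and the 52081 identifiers in common were used, with 97.8% to 99.7% of UMIs.

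Barcodes were kept from 500 UMIs, 200 genes and up to 20% mitochondrial UMIs (44937 cells), and the cells with the highest Scrublet scores, 0.8% of a library per 1000 cells, were removed as likely doublets (3074). Libraries were integrated with Seurat 5.3.0 (reciprocal PCA, 2000 variable genes, 30 components) and clustered by Leiden at resolution 0.8 with 20 neighbours (scanpy 1.11.5). Clusters were named "like" from at least 3 detected markers. UMIs were summed per library and class with at least 10 cells. Genotype was tested with edgeR 4.0.16 (quasi-likelihood, TMM, filterByExpr, no covariate, two-sided, threshold 0.05 after Benjamini-Hochberg adjustment over all genes), after a check on simulated data. Classes were compared within libraries by the exact sign-flip test and by edgeR with a library block. DESeq2 1.42.0, other filters, clusterings and left-out libraries were alternatives. Named genes were the members in every class, genes of the lists with the highest mean level (at most 4 per list) and the 5 genes most like the members. Genes of the lists named for their role (the Rfx genes, Ifng and H2-Ea-ps) and the chondrocyte-like and ratio comparisons were chosen after values were seen. The members and lists were chosen with earlier results of these data known.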

Additional observations from a re-analysis of the deposited data

How the results depend on the processing

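None of the 7 genes was called between genotypes in any class under any alternative that could be fitted. In macrophage-like cells all 7 log2 fold changes stayed below 0 in 18 of 18 alternatives, from -2.03 to -0.90 for H2-Ab1, whose lowest adjusted p was 0.352. Monocyte-like changes each turned sign in at least 1 alternative and are not given. In dendritic-like cells 3 genes changed direction. With replicate 3 of both groups left out, H2-Aa stood at -0.18 and Ciita at 0.72, and without integration H2-Eb1 stood at 0.088. With 1 library left out at a time, H2-Aa ran from -0.14 to 0.39 (negative without knockout 3), H2-Eb1 from -0.34 to 0.26 and Ciita from -1.06 to 0.45. The cause was not tested. Between classes, edgeR with the library as a block called 96 of 104 comparisons where the exact test called 0 of 105. Comparisons with the same direction in every library, 94 in the main setting, numbered 86 to 97 in the alternatives. They were fewest without integration and without doublet removal. Over all genes, the count called between genotypes rose from 0 to 10, 35 and 31 in macrophage-, monocyte- and dendritic-like cells without the filter on low counts, to 5 in macrophage-like and 2 in dendritic-like cells with DESeq2, to 113 in monocyte-like cells without integration and to 34 in dendritic-like cells without replicate 3. The highest count of genes called under any alternative was 59 in osteoclast-like, 50 in endothelial-like and 0 in stromal-like cells. With a replicate block, 0 members were called in each class where it could be fitted. Deviations of libraries with the same number correlated at 0.433, 0.242 and -0.128 over all cells, and the main test did not pair libraries by number. Replicate 1 of both groups shared a Cell Ranger version and low median UMIs, and replicate 3 of both groups shared a gene list. Whether the numbers mark batches was not tested. In monocyte-like cells the Cd74 to H2-Ab1 ratio overlapped between groups under the strict cell filter, with controls at 2.92 to 3.19 and the lowest knockout at 2.75. In B-like cells, leaving out libraries, the replicate block and a minimum of 20 cells could not be fitted. Knockout 1, with 9 dendritic-like cells, entered no test of that class.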
